A study of Homo sapiens with 6 samples.

Results

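Clustered protocadherins are cell-surface cadherins encoded in 3 neighbouring gene clusters, alpha, beta and gamma, on chromosome 5. They were taken as every gene of the count files on that chromosome whose symbol begins with PCDHA, PCDHB or PCDHG followed by a letter or digit, which gave 60 of 58381 genes: 16 alpha, 20 beta and 24 gamma. Of these, 53 are protein-coding, 6 are pseudogenes and 1 is an antisense RNA, PCDHB1-AS1, whose letters meet the rule. They lie on GRCh38 within chromosome 5 bases 140786136 to 141512981. Reads per gene came from polyadenylated RNA of 786-0, a widely used human cell line of clear cell renal carcinoma. Every library is labelled as a knockout of SETD2, the enzyme that trimethylates lysine 36 of histone H3. No library with intact SETD2 was analysed here, and the labels do not say whether the knockout line is 1 clone. The cells received DMSO, 100 nM decitabine or 300 nM decitabine on each of 3 days, with new medium on day 4 and harvest on day 5, and each group has 2 libraries. Decitabine is a deoxycytidine analogue that enters DNA and traps DNA methyltransferases. Nothing in the labels ties the libraries of a group to separate cultures, and the p-values below therefore rest on a spread between libraries that could be purely technical.

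As background, each alpha or gamma gene has its own large first exon, with its own promoter, spliced to constant exons common to its cluster. The first exon encodes the extracellular cadherin repeats and the transmembrane segment, and the constant exons encode a shared cytoplasmic tail. Beta genes are single large exons without such a tail. Neurons switch on a few of these promoters per cell, so that combinations of isoforms mark each cell's surface and binding of like to like separates its branches from one another. Promoter choice in neurons is known to involve DNA methylation, CTCF and cohesin. The C-type genes at the end of the alpha and gamma clusters are known for broader, less random use.

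The promoters of the variable exons carry a shared word, and its form in the 3 clusters is shown here because the results are described promoter by promoter. RefSeq's table (GRCh38.p14) gave 52 start sites for 47 of the 60 genes, and only the 250 bases before each start were read. CGCT, on either strand, was in 96.2% of the members' windows and in 64.8% of 35116 windows of the same length before all listed starts. The longer CGCTG on the forward strand was in 43 of 52 windows (82.7%), against 24.8% of all windows. CGCTG contains CGCT, and it was chosen after these promoters had been read. The core word of CTCF sites, searched on either strand, was in 1.92% of the members' windows and in 4.01% of all windows. The 1 match among the members was in the window of PCDHB9, and it ends on the first capital base of that gene's line below. Only this fixed word was searched for, and sites that vary from it were not counted. Whether these promoters have fewer CTCF sites than others was therefore not tested. Each line below runs 5′ to 3′ on the plus strand with CGCTG in capitals and up to 15 bases on either side.

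PCDHA1: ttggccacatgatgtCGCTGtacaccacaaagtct
PCDHA6: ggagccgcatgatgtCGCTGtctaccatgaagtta
PCDHB15: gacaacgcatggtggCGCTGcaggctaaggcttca
PCDHB13: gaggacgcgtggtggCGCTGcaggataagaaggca
PCDHB9: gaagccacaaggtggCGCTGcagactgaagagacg
PCDHB10: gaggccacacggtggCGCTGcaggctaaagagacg
PCDHGA2: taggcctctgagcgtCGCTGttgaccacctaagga
PCDHGB4: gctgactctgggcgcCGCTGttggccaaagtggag
PCDHGB5: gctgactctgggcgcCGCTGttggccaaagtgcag
PCDHGA11: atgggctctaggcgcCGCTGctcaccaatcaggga
PCDHGA10: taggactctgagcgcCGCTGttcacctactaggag
PCDHGC4: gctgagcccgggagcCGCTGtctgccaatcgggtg

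The word was preceded by TGT in 6 of 13 alpha windows and in 3 of 25 gamma windows, those of PCDHGA3, PCDHGA4 and PCDHGA5. It was preceded by GGTGG in 11 of 14 beta windows and by GCGC in 11 of 25 gamma windows, and these 3 prefixes were also picked from the members' own promoters. CGCTG on the forward strand was in 10 of 11 windows of members that rose at 300 nM and in 6 of 7 of members that fell. PCDHB14, which fell, and a window of PCDHGB4, which rose, lacked it. PCDHB15, which rose, and PCDHB13 and PCDHB9, which fell, carry the word with the same prefix. PCDHGA12 and PCDHB6, which rose, and PCDHGC5, which fell, had no start listed. Whether the word bears on the changes was not tested. The members' windows held a median of 6 CG dinucleotides, against 11 over all windows. The 250 bases before the start of PCDHGA11, which rose, and of PCDHGC3, which fell, are given because these genes moved in opposite directions. That of PCDHGA11 (chr5:141420801-141421050, plus strand) has 11 CG dinucleotides and that of PCDHGC3 (chr5:141475716-141475965, plus strand) has 15, with CGCTG once in the former and 2 times in the latter.

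PCDHGA11: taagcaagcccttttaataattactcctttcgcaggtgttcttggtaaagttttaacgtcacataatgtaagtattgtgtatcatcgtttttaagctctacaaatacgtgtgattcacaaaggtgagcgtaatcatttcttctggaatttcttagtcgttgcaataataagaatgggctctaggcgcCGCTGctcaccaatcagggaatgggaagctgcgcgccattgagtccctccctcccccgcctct
PCDHGC3: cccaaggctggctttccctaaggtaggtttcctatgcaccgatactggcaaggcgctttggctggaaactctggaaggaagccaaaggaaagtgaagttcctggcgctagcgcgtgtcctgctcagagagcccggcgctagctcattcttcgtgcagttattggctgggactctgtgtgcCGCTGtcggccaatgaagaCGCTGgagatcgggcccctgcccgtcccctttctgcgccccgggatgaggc

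Counts were made by the authors per gene, with mates counted separately and without strand. A read that falls in exons of more than 1 gene is not given to any of them by the counting options recorded in the files. The 22 protein-coding gamma genes have 2181 bases of exon in common and the 15 protein-coding alpha genes have 2866, so reads of the constant exons are not in these counts and each alpha or gamma value reads the gene's own exons. The pseudogene PCDHA14 has no exon base of its own, 2298 being shared, and could receive no read under these options. Antisense reads cannot be told apart from sense reads. Levels are CPM, each gene's reads relative to all reads of its library, after TMM scaling, as mean ± SD over 2 libraries. The low-count filter left 33 members to test, 10 beta and 23 gamma. Of the 27 members that were not tested, 8 had no read in any library, PCDHA14 among them, and the highest count among the others was 24 reads. A count of 0 allows up to 3 reads, or 0.0306 to 0.0362 CPM, in a library if reads are independent. Mates of a fragment are not, and where both are counted the limit is up to 6 reads, or 0.0611 to 0.0725 CPM, for counting error only.

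The libraries held 89159112 to 96646427 reads assigned to genes. SETD2 transcripts were read in all 6 libraries. The DMSO libraries held 7490 and 7638 reads of it, those of 100 nM held 3905 and 4536, and those of 300 nM held 1360 and 2057. The log2 fold change of SETD2 was -0.84 at 100 nM and -2.06 at 300 nM. Under an offset for gene length and GC content, the first of 3 versions, it was -0.15 (edgeR adjusted p = 0.13) and -0.68. A transcript count does not show whether the protein was lost, and the deleted or disrupted stretch is not given in the labels. The kidney carcinoma markers PAX8 and VIM were present in every library, and CA9, another marker of this cancer, had no read with DMSO and 24 and 27 reads at 300 nM. Because clustered protocadherins are best known in neurons, 15 neuron markers were read beside them. Their summed level was 135 to 137 CPM with DMSO, 136 to 140 CPM at 100 nM and 135 to 136 CPM at 300 nM, and of 12 tested 6 rose and 2 fell at 300 nM (4 and 1 without replicate 2 of DMSO, 6 and 1 without replicate 1). DCX had no read in any library. The sum was mostly NEFL, a neurofilament gene, which was at 119 CPM in both DMSO libraries and fell to 97.1 and 98.5 CPM at 300 nM. SLC17A7, a vesicular glutamate transporter, rose from 0.146 and 0.17 CPM to 14.1 and 12.4 CPM. Of 8 blood-cell markers, 5 were tested and 4 rose at 300 nM, with summed levels of 0.759 to 0.83 CPM with DMSO and 2.7 to 4.33 CPM at 300 nM. Without replicate 1 of 300 nM, 2 rose, as under an offset for gene length and GC content, and another version of that offset gave 1 higher and 1 lower. HBB, a haemoglobin gene, had 4 and 12 reads with DMSO and 120 and 14 at 300 nM. The part of either list in the results below was not tested.

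At 100 nM decitabine 12 members rose and 1 fell by edgeR's quasi-likelihood test (adjusted p under 0.05). At 300 nM 11 rose and 7 fell, and 10 members rose at both doses. Changes were common across the genome. Of all 23160 genes tested, 24.0% rose and 18.7% fell at 100 nM (42.7% called in all), and 34.8% rose and 31.1% fell at 300 nM (65.9% in all). The median log2 fold change of the 33 tested members was 0.89 at 100 nM and 0.39 at 300 nM, beside 0.03 and 0.05 for all genes tested. The members passed the low-count filter partly through the groups in which they were high. Both dose comparisons share the DMSO libraries, and for the members they are given side by side. The count of members that fell at 300 nM rests on processing and on single libraries. It was below 7 whichever 1 library was left out. The count was 4, 10 or 3 under 3 versions of an offset for gene length and GC content that differ in how libraries were scaled.

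**Figure D1:**
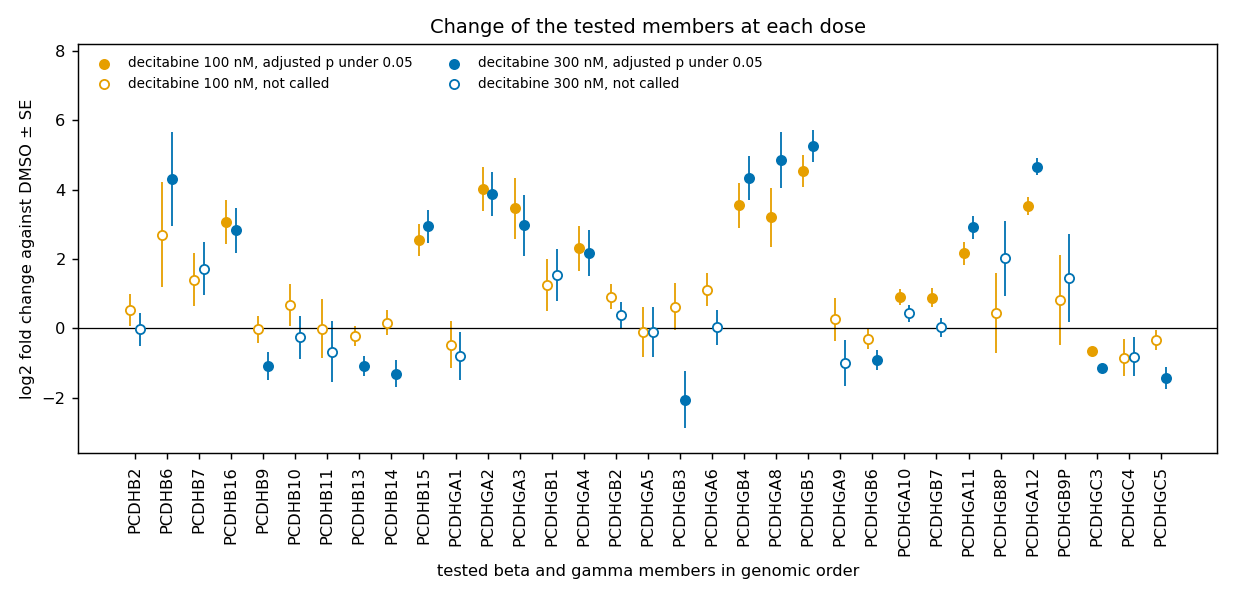
Log2 fold change against DMSO (points, with bars of 1 SE) of the 33 tested beta and gamma members, in genomic order, at 100 nM (orange) and 300 nM (blue); filled points have an adjusted p under 0.05. The highest points at 300 nM are PCDHGB5 at 5.25, PCDHGA8 at 4.85 and PCDHGA12 at 4.66, and the 3 PCDHGC genes at the right end lie below 0 at both doses.

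In the gamma cluster a single gene gave most of the reads. PCDHGC3 (ENSG00000240184.6, chromosome 5 bases 141475947 to 141512979, plus strand), a C-type gene, had 10431 and 10591 reads with DMSO, 7032 and 6464 at 100 nM, and at 300 nM 4466 and 4408. The libraries of the 3 groups did not overlap and fell in order of dose. Its level was 111 ± 2.94 CPM with DMSO, 70.8 ± 1.21 CPM at 100 nM and 50.3 ± 5.23 CPM at 300 nM (SD, n = 2). The log2 fold change was -0.64 (SE 0.11, edgeR adjusted p = 1.3e-04) at 100 nM and -1.14 (SE 0.11, edgeR adjusted p = 9.0e-08) at 300 nM. It remained called at both doses in all 16 alternatives, between -1.03 and -1.24 at 300 nM over the fits that left out 1 library. PCDHGC3 held 93.0% and 91.8% of all gamma reads with DMSO, 80.8% and 78.3% at 100 nM, and at 300 nM 73.2% and 70.7%. The exact 95% binomial intervals, taken with counts halved because mates were counted separately, lay between 91.0% and 93.6% with DMSO, between 77.0% and 82.0% at 100 nM, and at 300 nM between 69.1% and 74.7%. They cover counting error only.

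The other 23 gamma genes together moved the other way. Their summed level was 9.15 ± 1.31 CPM with DMSO, 18.2 ± 1.69 CPM at 100 nM and 19.5 ± 0.371 CPM at 300 nM. The sum with PCDHGC3 included fell, from 120 ± 4.24 CPM to 89.0 ± 0.476 CPM and 69.8 ± 5.6 CPM. Within the 23, the PCDHGA genes rose from 3.46 ± 0.925 CPM to 10.5 ± 1.71 and 13.3 ± 0.661 CPM. The PCDHGB genes were at 3.68 ± 0.0161 CPM with DMSO, 6.23 ± 0.262 CPM at 100 nM and 5.36 ± 0.256 CPM at 300 nM. PCDHGC4 and PCDHGC5 together were at 2.01 ± 0.396, 1.51 ± 0.242 and 0.821 ± 0.0336 CPM. These sums were not tested, and fewer cells using a promoter cannot be told apart from less RNA per cell in bulk samples.

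**Figure D2:**
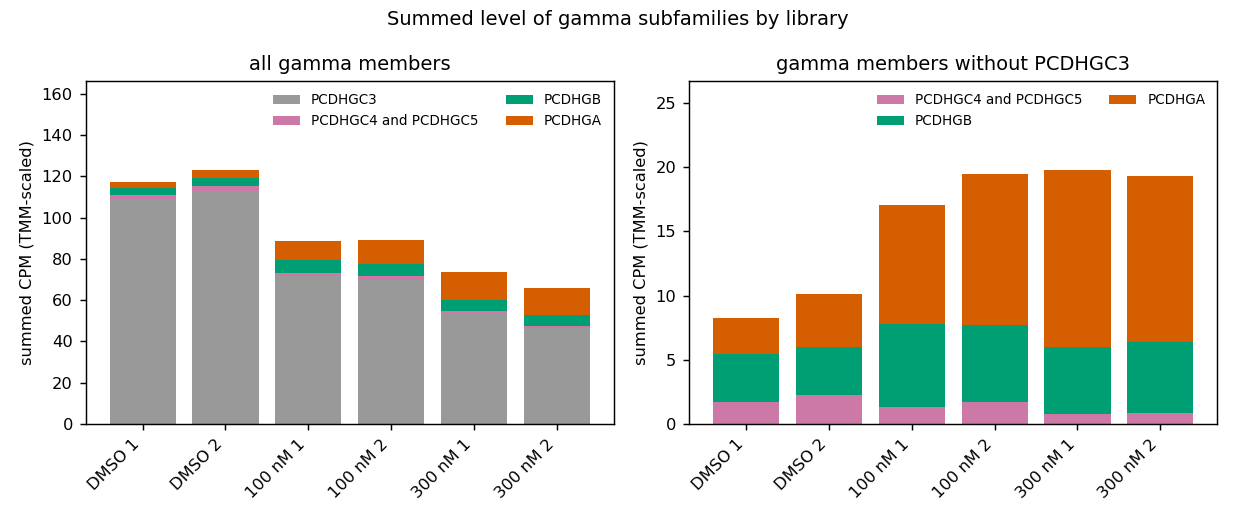
Summed level in TMM-scaled CPM of the gamma subfamilies in each library (stacked bars), for all gamma members on the left and without PCDHGC3 on the right; the vertical scales differ. PCDHGC3 shrinks with dose on the left, and the PCDHGA share grows on the right.

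PCDHGA12 (ENSG00000253159.2, bases 141430589 to 141512979), an A-type isoform gene and the last of the variable A genes, had the highest level at 300 nM of the members that rose. It had 20 and 26 reads with DMSO, 251 and 284 at 100 nM, and at 300 nM 508 and 580. Its log2 fold change was 3.53 (SE 0.25, edgeR adjusted p = 4.7e-09) at 100 nM and 4.66 (SE 0.25, edgeR adjusted p = 4.8e-11) at 300 nM. It was called at both doses, and between them, in all 16 alternatives. Per kilobase of exon not shared with another gene it moved to second place among the members at 300 nM, at 2.33 CPM per kb, behind PCDHGC3 at 15.5 CPM per kb. Next in that order came PCDHGB5 at 0.544, PCDHGA11 at 0.54 and PCDHGA10 at 0.525 CPM per kb, and the libraries of PCDHGA10 spanned those of the other two. With DMSO the order had been PCDHGC3 at 34.0 CPM per kb, then PCDHGC5 at 0.574 and PCDHGB7 at 0.426 CPM per kb, and the libraries of the last 2 overlapped.

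Among A-type genes, PCDHGA11 was read 31 and 18 times with DMSO, 102 and 119 times at 100 nM, and at 300 nM 163 and 185 times. The groups did not overlap, with log2 fold changes of 2.17 at 100 nM and 2.92 (SE 0.33, edgeR adjusted p = 5.7e-07) at 300 nM. PCDHGA8 had 0 and 4 reads with DMSO, 17 and 22 at 100 nM, and at 300 nM 58 and 56. Its log2 fold change at 300 nM was 4.85 (SE 0.81), and it was between 3.88 and 8.90 over the fits that left out 1 library, since it starts from so few reads. PCDHGA2 had 6 and 1 reads with DMSO, 64 and 54 at 100 nM, and at 300 nM 50 and 49. Its treated libraries all lay far above the DMSO libraries. The scaled levels overlapped between doses, at 0.652 and 0.584 CPM with 100 nM and 0.604 and 0.518 CPM with 300 nM. PCDHGA3 and PCDHGA4 also rose at both doses, by log2 fold changes of 3.46 and 2.31 at 100 nM and 2.97 and 2.18 at 300 nM. PCDHGA4 had 26 and 103 reads in the 2 libraries of 100 nM, and its call at 100 nM was lost without replicate 2 of that dose. At 300 nM the call of PCDHGA3 was lost without replicate 1 of DMSO. That of PCDHGA4 was lost without replicate 1 of 300 nM and under the second version of the offsets.

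B-type genes rose at both doses in 2 cases. PCDHGB5 had 4 and 3 reads with DMSO, 96 and 73 at 100 nM, and at 300 nM 120 and 138. Its log2 fold change was 4.54 (SE 0.47) at 100 nM and 5.25 (SE 0.46, edgeR adjusted p = 2.3e-08) at 300 nM. In this fit it was the highest of the tested members at each dose. The order at 300 nM depended on processing. Under the first version of the offsets PCDHGA8 at 6.07 and PCDHGB4 at 5.19 lay above PCDHGB5 at 4.93. PCDHGB4 had 4 and 2 reads with DMSO, 30 and 43 at 100 nM, and at 300 nM 63 and 53, with log2 fold changes of 3.55 and 4.33. Both genes had libraries that separated by group. The genes that rose did not lie in 1 stretch. PCDHGA2 and PCDHGA3 are neighbours among the members, as are PCDHGB4, PCDHGA8 and PCDHGB5. These runs and PCDHGA4, PCDHGA11 and PCDHGA12 are separated along the cluster by genes that were not called, were not tested or fell.

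**Figure D3:**
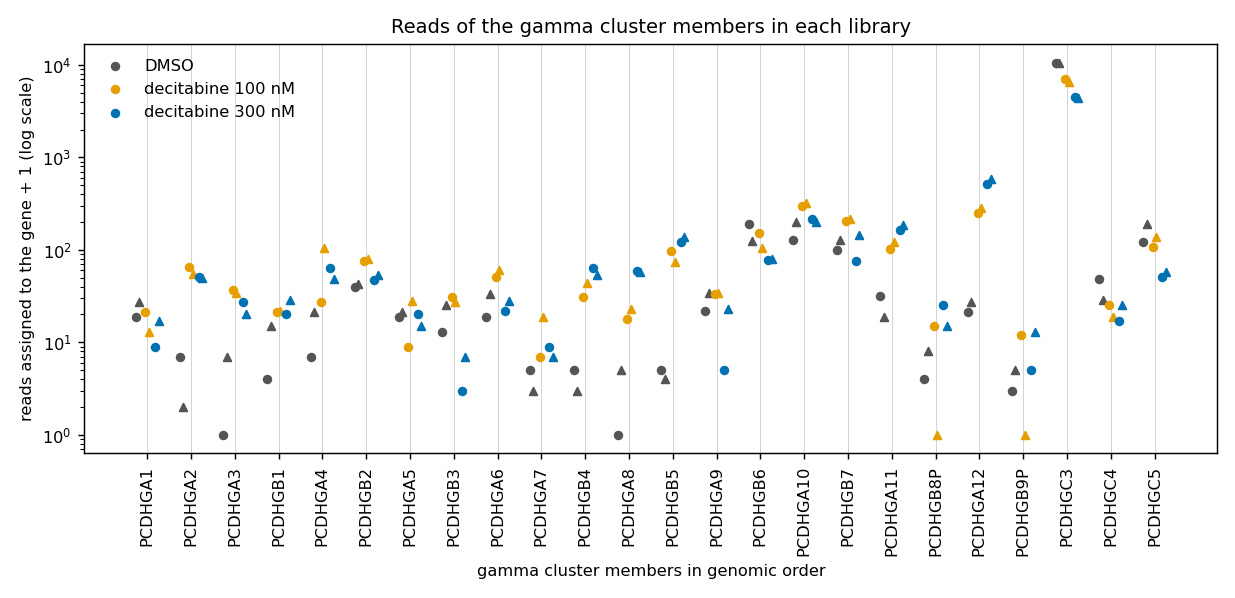
Reads plus 1, on a log scale, of the 24 gamma members in genomic order; colours are the groups, and circles and triangles are replicates 1 and 2. PCDHGC3 stands above every other member in all 6 libraries, and the orange and blue points of PCDHGA12 and PCDHGB5 lie well above the grey ones.

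PCDHGA10 and PCDHGB7 passed the test at 100 nM and not at 300 nM. PCDHGA10 had 128 and 199 reads with DMSO, 299 and 317 at 100 nM, and at 300 nM 215 and 198. PCDHGB7 had 99 and 126 reads with DMSO, 204 and 214 at 100 nM, and at 300 nM 75 and 143. For PCDHGB7 the step from 100 nM to 300 nM was itself called, at a log2 fold change of -0.86 (SE 0.27, edgeR adjusted p = 0.018), and for PCDHGA10 it was not, at -0.47 (SE 0.23, edgeR adjusted p = 0.118). That step of PCDHGB7 lost its call without replicate 2 of 100 nM and without replicate 1 of 300 nM. Both calls at 100 nM were lost without replicate 1 of DMSO, and that of PCDHGB7 also without replicate 2 of 100 nM.

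Besides PCDHGC3, 3 gamma genes fell at 300 nM. PCDHGC5, a C-type gene, had 119 and 187 reads with DMSO, 107 and 137 at 100 nM, and at 300 nM 50 and 56. Its log2 fold change at that dose was -1.43 (SE 0.31, edgeR adjusted p = 6.8e-04). The 300 nM libraries lay below all others, and the 100 nM libraries overlapped the DMSO range. PCDHGB6 had 189 and 123 reads with DMSO and 76 and 78 at 300 nM, and PCDHGB3 had 12 and 24 with DMSO and 2 and 6 at 300 nM. Their log2 fold changes were -0.91 and -2.06, and each kept its call in 11 of 16 alternatives. PCDHGC4, the remaining C-type gene, had 47 and 28 reads with DMSO, 24 and 18 at 100 nM, and at 300 nM 16 and 24, and was not called. The other gamma genes tested, PCDHGA1, PCDHGA5, PCDHGA6, PCDHGA9, PCDHGB1, PCDHGB2 and the pseudogenes PCDHGB8P and PCDHGB9P, were not called at either dose. PCDHGA7 had 2 to 18 reads and was not tested.

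In the beta cluster, genes moved in both directions. PCDHB15 (ENSG00000113248.5, bases 141245349 to 141249365), a single-exon gene, had 15 and 6 reads with DMSO, 62 and 62 at 100 nM, and at 300 nM 71 and 81. Its log2 fold change was 2.55 (SE 0.47, edgeR adjusted p = 3.2e-04) at 100 nM and 2.94 (SE 0.47, edgeR adjusted p = 3.4e-05) at 300 nM. PCDHB16 had 5 and 4 reads with DMSO, 43 and 35 at 100 nM, and at 300 nM 30 and 31, with log2 fold changes of 3.07 and 2.83. In both genes every treated library lay above both DMSO libraries, and both were called in all 16 alternatives at each dose. PCDHB6 had 0 and 1 reads with DMSO, 6 and 2 at 100 nM, and at 300 nM 10 and 13. It was called at 300 nM, where the ratio of its levels was 24.6 with a 95% counting interval of 4.0 to 1015.2 (exact binomial, too narrow because it takes mates as independent reads), and the call was lost when any of 3 libraries was left out.

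PCDHB13, PCDHB14 and PCDHB9 fell at 300 nM and were not called at 100 nM. PCDHB13 had 123 and 135 reads with DMSO, 106 and 115 at 100 nM, and at 300 nM 44 and 71. PCDHB14 had 109 and 133 reads with DMSO, 104 and 168 at 100 nM, and at 300 nM 24 and 69. PCDHB9 had 52 and 62 reads with DMSO, 64 and 49 at 100 nM, and at 300 nM 23 and 27. In all 3 genes the 300 nM libraries lay below every other library. The log2 fold changes were -1.08, -1.30 and -1.09, and the calls of PCDHB14 and PCDHB9 were lost without replicate 1 of 300 nM and under the first version of the offsets. PCDHB9 kept its call in 9 of 16 alternatives, PCDHB14 in 13 and PCDHB13 in 15. PCDHB2 had 28 and 34 reads with DMSO, 44 and 45 at 100 nM, and at 300 nM 23 and 34, and PCDHB10 had 16 and 34, 49 and 32, and 28 and 10. Neither was called, nor were PCDHB7 and PCDHB11. The summed beta level was 4.47 ± 0.42, 5.87 ± 0.479 and 3.94 ± 0.375 CPM.

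**Figure D4:**
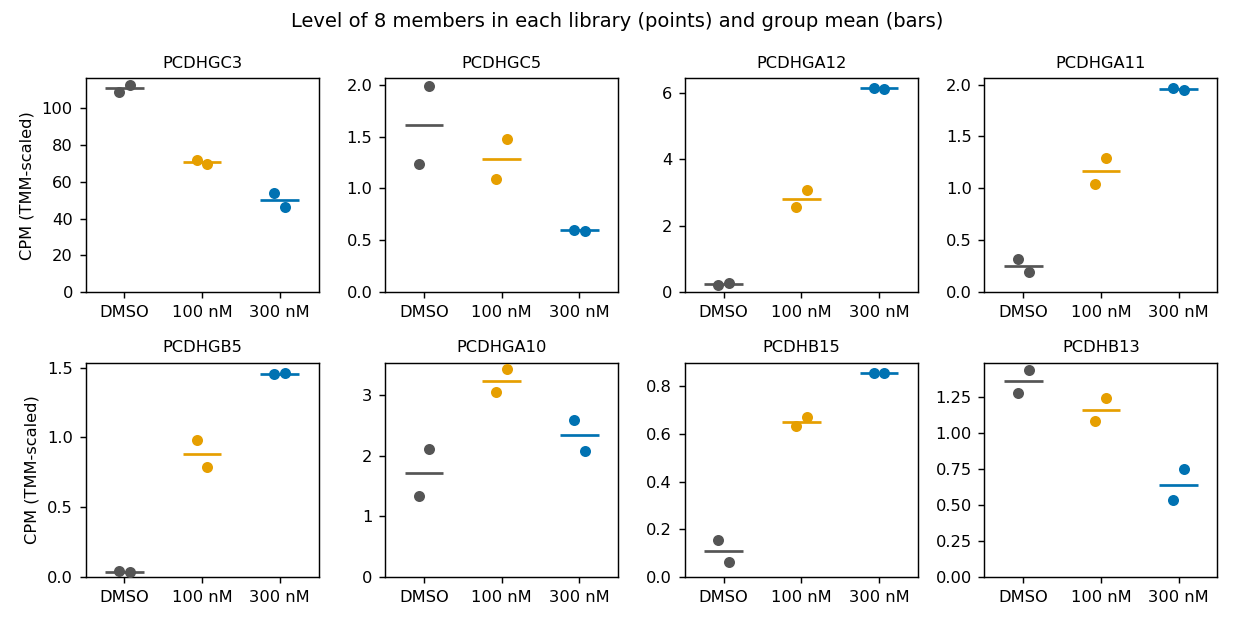
TMM-scaled CPM of 8 members in each library (points) with the group mean (bars); the vertical scales differ and start at 0. PCDHGC3, PCDHGC5 and PCDHB13 are lowest at 300 nM, PCDHGA12, PCDHGA11, PCDHGB5 and PCDHB15 are highest there, and PCDHGA10 is highest at 100 nM.

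The alpha cluster was nearly silent in DMSO. Its 16 genes together had 0 and 6 reads with DMSO, 12 and 14 at 100 nM, and at 300 nM 50 and 38, out of about the same library sizes, and none had enough reads to be tested. PCDHA6 had 0 and 0 reads with DMSO, 2 and 8 at 100 nM, and at 300 nM 24 and 0, so 1 library held all its 300 nM reads. PCDHA7 had 8 and 12 reads at 300 nM and none in the other 4 libraries. Without the low-count filter edgeR called both at 300 nM. PCDHA1 had 0 and 4 reads with DMSO and 4 and 8 at 300 nM, and PCDHA11 had 6 and 6 at 300 nM and none with DMSO. The C-type gene PCDHAC1 had no read in any library, and PCDHAC2 had 4 reads, all in replicate 2 of 300 nM. Because mates were counted separately, most of these even counts come from fewer fragments.

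Between the doses, 3 members were higher and 7 lower at 300 nM than at 100 nM, against 20.0% higher and 23.4% lower of all genes tested (43.4% in all). PCDHGA12 (log2 fold change 1.12, SE 0.19, edgeR adjusted p = 0.00017), PCDHGA8 and PCDHGA11 were the higher ones. PCDHGC3, PCDHGC5, PCDHGB3, PCDHGB7, PCDHB9, PCDHB13 and PCDHB14 were the lower ones. These counts rest on single libraries. Without replicate 2 of 100 nM, or without replicate 1 of 300 nM, 1 was higher and 2 were lower, and without replicate 2 of 300 nM 1 was higher. PCDHGA12 and PCDHGC3 were called in all 16 alternatives. PCDHB9 was called in 1 of them and lost its call when any library was left out and with a replicate block, which left 6 lower. PCDHGA11 was called in 8 alternatives, and PCDHGA8 and PCDHB13 in 12 each.

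Genes around the clusters were read for comparison. For these and the lists that follow, the background is all 23160 genes tested. Of that background 24.0% rose and 18.7% fell at 100 nM, and 34.8% rose and 31.1% fell at 300 nM. Of 29 tested genes inside the clusters' span or within 500 kb of it, 5 rose and 2 fell at 100 nM, and 12 rose and 4 fell at 300 nM, where the first version of the offsets gave 9 and 12. At 100 nM 3 rose without either DMSO library, and without replicate 2 of DMSO edgeR called 0 lower (1 at an unadjusted p under 0.05). Without either 100 nM library 1 was lower. TAF7, a subunit of the general transcription factor TFIID that lies between the beta and gamma clusters, was at 136 ± 8.2 CPM with DMSO, 144 ± 3.97 at 100 nM and 133 ± 18.9 at 300 nM, and was not called. PCDH1, a protocadherin outside the clusters (bases 141853111 to 141879246), had 110 and 96 reads with DMSO, 524 and 583 at 100 nM, and at 300 nM 790 and 699. It rose by a log2 fold change of 2.96 (SE 0.2, edgeR adjusted p = 8.7e-10) at the higher dose. Of 16 tested protocadherins and related cadherins outside the clusters, including FAT and CDHR genes, 9 rose and 4 fell at 100 nM. At 300 nM 8 rose and 4 fell. Under the first version of the offsets 10 rose and 3 fell at 100 nM, and 10 rose and 4 fell at 300 nM. On the log2 scale PCDH9 thereby turned from -1.65 to 1.43 at 300 nM. PCDH7 moved from 0.13 to 1.84 there, and CDHR5 from 0.97 to 0.37.

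Genes known to act on the clusters were read as a list of 26, all tested. At 100 nM 2 rose and 18 fell, and at 300 nM 3 rose and 18 fell, with a median log2 fold change of -0.75 at 300 nM. Without replicate 2 of DMSO 11 fell at 100 nM, and without replicate 1 of DMSO 12 fell and 1 rose. The 4 with the smallest adjusted p at 300 nM were NIPBL, the cohesin loader, STAG2 and SMC3, subunits of cohesin, and SMCHD1, a chromatin protein that represses the clusters. Their log2 fold changes at 300 nM were -3.61, -3.52, -3.51 and -3.78, and SMCHD1 had 6865 and 7461 reads with DMSO and 412 and 568 at 300 nM. CTCF fell by 0.78 on the log2 scale (edgeR adjusted p = 1.4e-05). The list's direction depended on the offsets for gene length and GC content. Under their 3 versions the list had 3, 2 or 12 genes higher and 11, 24 or 9 lower at 300 nM, with medians of -0.07, -0.52 and 0.16. In the first of these versions NIPBL, STAG2, SMC3 and SMCHD1 stayed lower, by log2 fold changes of -1.55, -1.26, -2.09 and -1.52, while CTCF was at 0.13. Whether these levels bear on the protocadherins was not tested. Of 22 genes for binding partners and processing of clustered protocadherins, all tested, 8 rose and 2 fell at 100 nM and 11 rose and 8 fell at 300 nM, or 14 and 2 there under the first offset version. At 100 nM 3 rose without either DMSO library and 5 without replicate 2 of 100 nM. The 4 with the smallest adjusted p at 300 nM were RET and FYN, which rose, and ADAM10 and NCKAP1, which fell. ADAM10 is a protease that sheds the extracellular part of these proteins. In that order the log2 fold changes at 300 nM were 9.35, 1.86, -2.44 and -1.97. Under the first offset version they were 9.15, 2.17, -0.07 and 0.31. RET had 0 and 2 reads with DMSO and 683 and 681 at 300 nM.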

How the data were processed

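Per the labels, poly-A enriched libraries were prepared from miRNeasy RNA of 6 samples. The authors deposited whole-number read counts per gene, made with featureCounts v1.5.0-p3 on GENCODE 28 gene models per the file headers, and STAR and SAMtools are named in the submitters' processing notes. The notes name hg19 and GRCh37, but the files' coordinates are GRCh38, since all 56933 genes whose versioned identifier is also in GENCODE 29 lie at the GRCh38 positions listed there. The authors also deposited a log2 matrix, variance-stabilised by its values (DESeq2 is named in the notes), which was used for 1 alternative.

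Counts were filtered with filterByExpr (23160 genes kept), TMM-scaled and fitted with edgeR 4.0.16's quasi-likelihood test on all 6 libraries by group (3 residual degrees of freedom, biological coefficient of variation 11.8%), two-sided, Benjamini-Hochberg adjusted over all genes tested; R 4.3.3, limma 3.58.1 and DESeq2 1.42.0 served alternatives. On simulated counts for 300 nM against DMSO, with 200 of 23160 genes changed, all with a mean of at least 25 reads, the fit recovered 22.5% of 1.5-fold rises, 92.5% of 2-fold and 100% of 4-fold rises, 82.5% of falls to 0.5 and 100% of falls to 0.25 of the level, and 3% of its calls were false; genes with fewer reads were not simulated as changed. The simulation changed a far smaller share of genes than the 65.9% called at 300 nM in the data. Its rates therefore do not cover scaling or calling when most genes change. With 2 libraries against 2, an exact permutation test cannot go below p = 0.333, so none was used. Named members were the 4 highest levels per cluster, the 2 highest and 2 lowest changes at 300 nM among members whose DMSO libraries each held 10 reads or more, the 2 largest rises among those starting lower and the C-type genes; the other called members were added. Members and lists were chosen with earlier results of these data known. The gene length and GC offsets, smoothed over 12432 expressed protein-coding genes, were planned, but how libraries are scaled under them was not: 3 versions were run, and the one listed first was settled on after the members' calls under each had been seen, because a constant added to the offsets does not alter it.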

Additional observations from a re-analysis of the deposited data

How the results depend on the processing

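Across 16 alternatives (14 planned, 2 added after seeing the data), 10 of 13 members called at 100 nM and 10 of 18 at 300 nM were called in every one, but 2 of 10 between the doses. Leaving out 1 library each, members that fell at 300 nM numbered 4 to 6 (7 with all libraries), and between the doses 1 to 4 were higher and 2 to 7 lower. The length and GC offsets were run in 3 versions that differ only in library scaling, with the calls seen each time, and the choice among them is therefore not blind. With scaling taken anew from corrected counts, 13 members rose and 1 fell at 100 nM, and 12 rose and 4 fell at 300 nM (7 without offsets). On the uncorrected library sizes, which moved the median of all genes to -0.35 and -0.45, 3 fell at 100 nM and 10 at 300 nM, and PCDHGB7 turned to -0.74 at 300 nM (edgeR adjusted p = 0.037; 0.03 without offsets). Centred on the tested genes (medians 0.18 and 0.24), 3 fell at 300 nM. The cause was not tested. The labels name no source that same-numbered libraries share; their deviations correlated at 0.101, 0.118 and 0.357 over 14434 genes, each above 0.1, but there are only 2 numbers and the libraries were analysed unpaired. With a replicate block, 12 rose and 1 fell at 100 nM, 11 rose and 7 fell at 300 nM, and 3 were higher and 6 lower between the doses, the lost call being that of PCDHB9. Members with few reads in DMSO have fold changes limited by depth.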
